A study of Drosophila melanogaster with 48 samples.

Results

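The 176 genes described here carry a CG number as their symbol in the annotation, the form given to a predicted Drosophila gene until it is named, although some have a family name among their synonyms. Their RNA stood high in embryonic neurons at 3 collection times. A gene entered the set if it was protein-coding, if its mean over the Elav-positive libraries was at least 10 TPM and at least 4 times the mean of the Elav-negative libraries at 6-8h, 8-10h and 18-22h after egg laying, and if that Elav-positive mean lay above the mean of the Repo-positive libraries each time. TPM is the abundance of an RNA per length, scaled to the same total in every library, and was summed here over the transcripts of a gene. Of 5976 protein-coding genes with a CG symbol, 2051 reached 10 TPM in Elav-positive cells at all 3 times, and the fold term then left 372 at 6-8h, 235 at 8-10h, 340 at 18-22h and 180 at all 3 times. The comparison with Repo-positive cells removed 4 more and left 176, or 2.95% of the CG genes. The same terms were met by 343 of the 7826 protein-coding genes with another symbol (4.38%). Elav-positive, Elav-negative and Repo-positive libraries chose the genes, so comparisons among these libraries, those between collection times included, are given below as a description, without a test.

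The study sorted cells from fixed, dissociated embryos to follow transcription through early nervous system development, and made 48 RNA-seq libraries in 24 groups of 2 biological duplicates. Cells with the marker and cells without it were kept as separate groups. Neurons (Elav) and glia (Repo) were sorted at 6-8h, 8-10h and 18-22h, while the Pros sort (neuroblasts and ganglion mother cells), the Ind sort (intermediate column) and the Vnd sort (ventral column) were made at 4-6h and 6-8h. All flies had the yellow-white background. The Elav, Repo and Pros sorts used antibodies to the endogenous protein, and the column sorts used a fluorescent reporter driven by a column enhancer, so that those cells were defined by the reporter and not by the protein itself. The Elav libraries came from line ind_1.4::GFP (6-8h, replicate 1), from yw (6-8h, replicate 2, and 8-10h) and from vnd-lexA/VC:FNLDD (18-22h). The Repo libraries came from ind_1.4::GFP at 6-8h and from vnd-lexA/VC:FNLDD later, and the Pros libraries all came from vnd-lexA/VC:FNLDD. Ind cells carried ind_1.4::dsRed at 4-6h and ind_1.4::GFP at 6-8h, and Vnd cells carried vnd_743::dsRed. In neurons the 18-22h collection and its fly line therefore cannot be told apart, while yw libraries stand at both 6-8h and 8-10h.

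Neuroblasts are the neural stem cells of the embryo. They leave the neurogenic ectoderm, which is divided into columns that express ind or vnd, and divide to give ganglion mother cells, whose daughters become neurons or glia. Prospero is a homeodomain protein of neuroblasts and ganglion mother cells, Elav is an RNA-binding protein of neurons, and Repo is a homeodomain protein of glia. A neuron that has left the cell cycle first grows its axon and later fills with the proteins of the synapse, such as synaptic vesicle proteins, ion channels and transmitter receptors. A set of genes that stays on through these stages can hold general neuronal components as well as genes with a role at 1 stage.

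Total estimated reads ranged from 18120862 to 113452420 per library. The neuron list, 20 well-studied neuronal genes such as elav, nSyb, Syt1 and brp, was higher in Elav-positive than in Elav-negative cells for 20 of 20 genes at each time. Its summed level was 5342 to 12863 TPM over the Elav-positive libraries, against 426 to 817 TPM over the Elav-negative ones, and none of its genes was at 0 in Elav-positive cells. At 6-8h the neuroblast list summed to 2048 and 2080 TPM in Elav-positive against 796 and 851.5 TPM in Elav-negative cells (6 of 10 higher). At 8-10h it summed to 2437 and 1722 against 552.5 and 609 TPM (6 of 10). The glia list had 1081 and 1349 against 552 and 748 TPM at 6-8h (8 of 12). The muscle list had 0 of 9 genes higher at each time. Elav-positive cells are called neurons after the sort, and the part of other cells in them was not tested. The median TPM of 105 autosomal odorant and gustatory receptor genes, which mark the level reached by genes that few embryonic cells use, lay between 0.0203 and 20.7 over the 48 libraries and differed between replicates. In Elav-positive cells it was 2.98 and 0.439 TPM at 6-8h, 0.603 and 15.4 TPM at 8-10h, and 10.4 and 3.31 TPM at 18-22h. Of the 176 genes, 90 lay under 3 times that median in 8-10h Elav-positive replicate 2, which was also the library with the fewest reads, against 0 to 5 in each of the other 5 Elav-positive libraries. The remaining 86 genes were at or above 3 times the receptor median in all 6, and only 2 of the 105 receptor genes met the terms that chose the set.

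Over the 3 Elav-positive means, a gene of the set averaged between 19.3 and 946 TPM, with a median of 65.8 TPM. The median gene had 31.7 and 55.8 TPM in the 6-8h Elav-positive libraries, 31.2 and 44.7 TPM at 8-10h, and 107.5 and 95.4 TPM at 18-22h. In the sorts with no part in the choice, the median of group means was 3.29 to 22.7 TPM over the 6 marker-positive groups, highest in Vnd-positive cells at 4-6h (22.7 TPM, with 167 genes at 10 TPM or more) and at 6-8h (18.1 TPM, 170 genes). All CG genes also stood high there, with medians of 13.7 TPM at 4-6h and 16.7 TPM at 6-8h. In the 6-8h Vnd-positive libraries 5489 and 4687 of the 5976 CG genes reached 10 TPM, and the receptor median was 14.9 and 10.8 TPM. The Elav-negative libraries gave medians of 3.41 and 1.33 TPM at 6-8h, 1.97 and 7.97 TPM at 8-10h, and 3.18 and 14.9 TPM at 18-22h. Both Elav-positive libraries lay above both Elav-negative libraries for 176, 175 and 176 genes at 6-8h, 8-10h and 18-22h, a separation that the terms of the choice largely fix. The ratio of group means was largest at 6-8h, with a median of 16.6, against 6.89 at 8-10h and 11.1 at 18-22h. The lower ratio at 8-10h came with the replicate difference named above: in Elav-negative cells the second library was above the first for 170 genes at 8-10h and for 175 at 18-22h, by a median of 3.96 and 4.36 times, while the receptor median was 0.514 and 7.69 TPM at 8-10h and 0.225 and 15.9 TPM at 18-22h. The part of this difference in the ratios was not tested. Leaving out 8-10h Elav-negative replicate 1 reduced the set to 107 genes, 106 of them in the 176, while each other Elav or Repo-positive library left out gave 129 to 219.

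**Figure D1:**
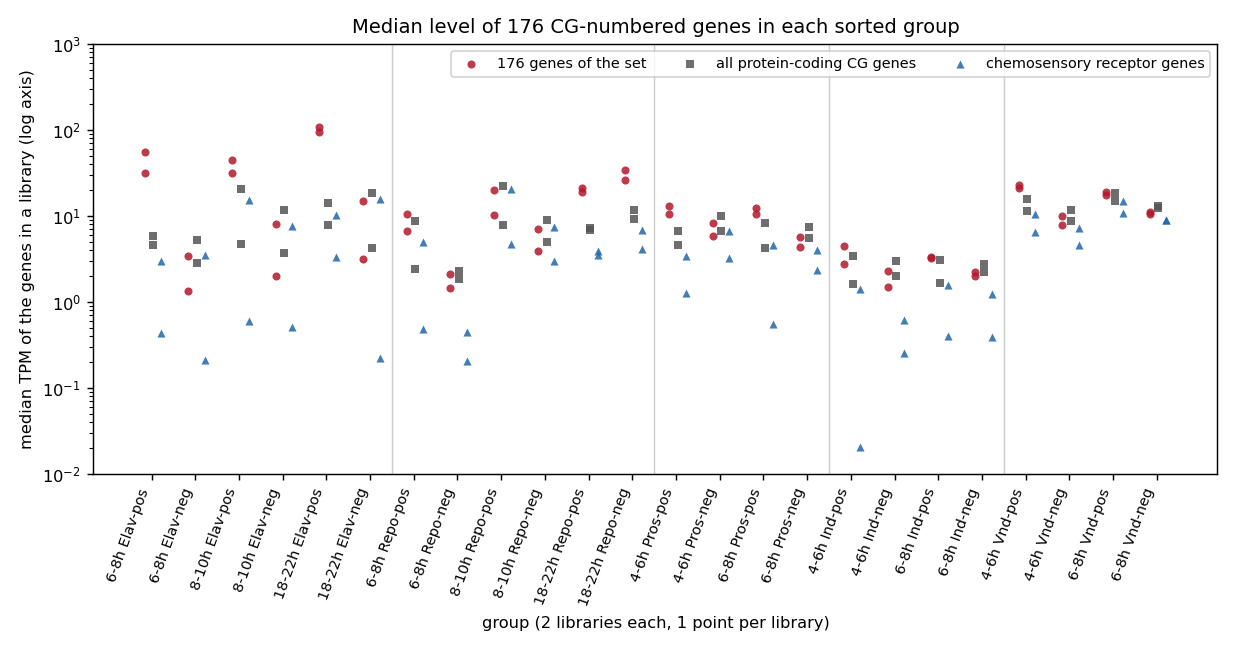
Median TPM (log axis) of the 176 genes, of all protein-coding CG genes and of the chemosensory receptor genes in each of the 48 libraries, grouped by sort and time with 1 point per library. The set stands highest in Elav-positive cells, at 107.5 and 95.4 TPM at 18-22h, and the receptor genes differ between replicates of 1 group.

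The 8 genes with the highest level in neurons set the upper end. CG14989 (3L:4087581-4092706) had 678 and 626 TPM in Elav-positive cells at 6-8h, 389 and 515 TPM at 8-10h, and 1623 and 1846 TPM at 18-22h, against 8.13 and 2.03, 8.54 and 15.6, and 37.6 and 77.4 TPM in Elav-negative cells at the same times. It was the most abundant gene of the set at 18-22h and had the largest Elav-positive to Elav-negative ratio at 6-8h, 128. CG6329 (2R:13826371-13833503) was nearly level in neurons, with 516 and 824 TPM at 6-8h, 571 and 648 TPM at 8-10h, and 820 and 835 TPM at 18-22h. CG13928 (3L:1625791-1628377), a gene of 1 exon, was also level at 569 and 515, 411 and 647, and 622 and 729 TPM. In Elav-negative libraries CG6329 reached at most 47.2 TPM and CG13928 at most 41.0 TPM. In Pros-positive cells at 4-6h CG6329 had 262 and 266 TPM and CG13928 had 256 and 261 TPM.

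CG13920, CG3408, CG31140, CG30172 and CG9919 followed. CG13920 (3L:1648944-1651501) carries the RefSeq synonym NACHO, in mammals the name of a chaperone needed to assemble nicotinic acetylcholine receptors, and was lower late, with 464 and 533 TPM at 6-8h, 594 and 562 TPM at 8-10h, and 301 and 393 TPM at 18-22h. CG3408 (3L:9506818-9509583) had the same shape, with 521 and 561, 591 and 565, and 146 and 214 TPM. CG31140 (3R:23963180-23983232), listed as the diacylglycerol kinase DGKt, an enzyme that turns the lipid messenger diacylglycerol into phosphatidic acid, had 166 and 371, 149 and 198, and 766 and 811 TPM. CG30172 (2R:24030546-24031427), a short gene with the synonym DmelCSP1, had 214 and 286, 95.3 and 136, and 866 and 746 TPM. CG9919 (X:16328437-16330759) had 208 and 340, 196 and 206, and 559 and 601 TPM. The first pair of these 5 genes peaked at 8-10h and the other 3 at 18-22h, as did 149 of the 176 genes, while 19 peaked at 8-10h and 8 at 6-8h.

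**Figure D2:**
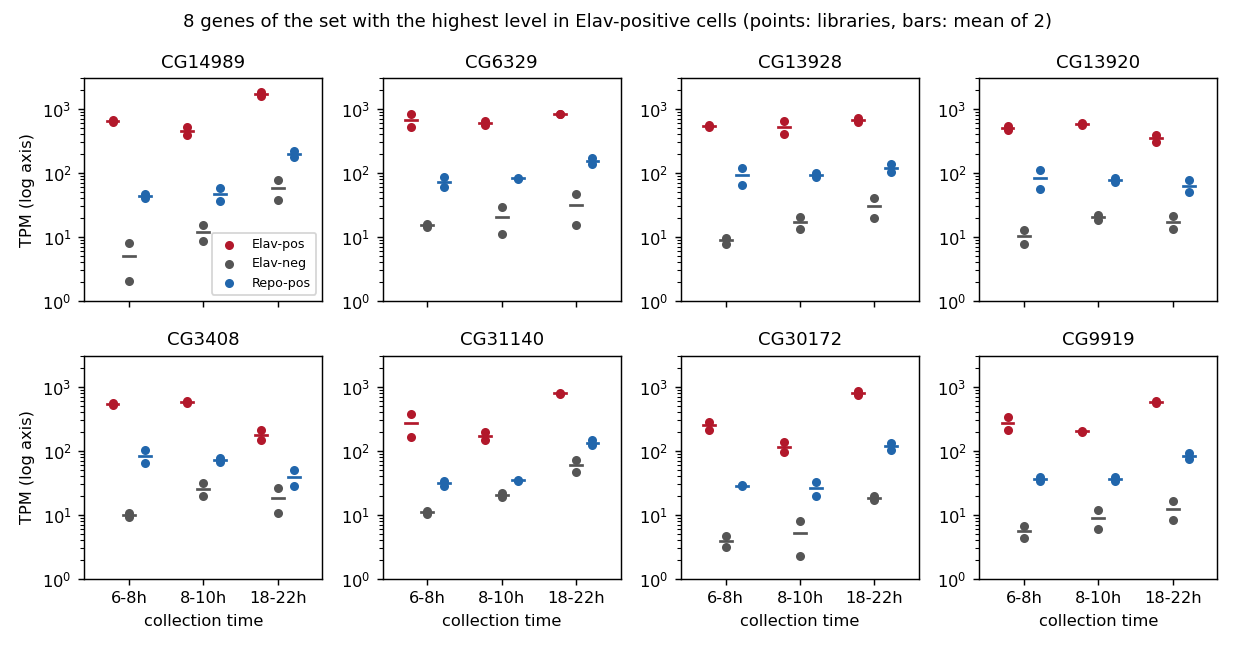
TPM (log axis) of the 8 genes with the highest mean over the Elav-positive groups, by collection time, in Elav-positive, Elav-negative and Repo-positive libraries (points) with the mean of each pair (bars). The Elav-positive points lie above all others at each time, and CG13920 and CG3408 are lowest in neurons at 18-22h.

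Reads of these genes were also found in Repo-positive glial cells, at a lower level. The median gene had 8.66, 14.7 and 19.6 TPM in Repo-positive cells at 6-8h, 8-10h and 18-22h. All CG genes had medians of 5.45, 15.1 and 7.03 TPM in the same groups. At 8-10h the 2 Repo-positive libraries differed. The set stood above all CG genes in replicate 1 (10.2 against 7.79 TPM) and below them in replicate 2 (19.9 against 22.0 TPM). The ratio of Elav-positive to Repo-positive means had a median of 5.38, 2.51 and 5.51 at these times, and it was under 2 for 6, 59 and 3 genes. At 8-10h the receptor median was 0.603 and 15.4 TPM in Elav-positive and 4.66 and 20.7 TPM in Repo-positive libraries. The 8-10h Elav libraries came from yw and the Repo libraries from vnd-lexA/VC:FNLDD. The part of receptor level and fly line in the lower ratios at 8-10h was not tested. CG5065 and CG42613 are named here because they were closest to the glial level at 18-22h, after their values were seen. CG5065 (2R:16607654-16624894), listed as the fatty acyl-CoA reductase FAR1, which makes fatty alcohols, was nearly as abundant in glia as in neurons at 18-22h, with 274 and 331 TPM in Elav-positive cells and 277 and 305 TPM in Repo-positive cells. CG42613 (3R:18929196-18978088), with the synonym dLev-10 after a worm protein that clusters acetylcholine receptors, had 283 and 271 TPM in Elav-positive cells and 254 and 210 TPM in Repo-positive cells at that time. The neuron list was not absent from glia: its summed level was 1347 and 1072 TPM in Repo-positive cells at 6-8h, 1318 and 1182 TPM at 8-10h, and 2312 and 2384 TPM at 18-22h. Whether neuronal RNA in the Repo-positive sort adds to the values of the set there was not tested.

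Against the Repo-negative rest of the embryo, the set changed side with time. At 6-8h both Repo-positive libraries lay above both Repo-negative libraries for 158 genes (35.8% of all 17109 genes tested did so), and at 8-10h for 143 (32.9%). At 18-22h both Repo-positive libraries lay below both Repo-negative ones for 138 genes (42.8% of all genes) and above them for 7 (15.7% of all genes). The median gene had 18.8 and 21.2 TPM in Repo-positive cells and 34.2 and 26.5 TPM in Repo-negative cells at 18-22h. Neurons belong to the Repo-negative fraction, and the neuron list turned in the same way: 20 of its 20 genes were higher in Repo-positive cells at 6-8h and at 8-10h, and 2 of 20 at 18-22h, when its sum was 2312 and 2384 TPM in Repo-positive and 3961.5 and 3006 TPM in Repo-negative cells. In sorted bulk cells such as these, fewer cells of a type and less RNA per cell cannot be told apart. Repo-positive values had a part in choosing the set, so no test was made here.

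The limits of the choice cut through a continuous range. CG1688, CG10384 and CG42507 were the closest to being left out, with a lowest ratio of Elav-positive to Elav-negative means of 4.00 (12.97 and 3.24 TPM, 8-10h), 4.00 (18.9 and 4.72 TPM, 8-10h) and 4.03 (43.2 and 10.7 TPM, 6-8h). CG14024, CG15537 and CG8910 were left out at ratios of 3.99 (18.4 and 4.61 TPM, 8-10h), 3.98 (10.1 and 2.53 TPM, 6-8h) and 3.93 (17.0 and 4.33 TPM, 8-10h). When every Elav-positive library had to pass against every Elav-negative and Repo-positive library of its time, 75 of the 176 remained, and with TPM rescaled by trimmed-mean factors 152 remained.

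The Pros, Ind and Vnd sorts allow a test, since they had no part in the choice. Many genes of the set were higher in Pros-positive cells, the sort for neuroblasts and ganglion mother cells, than in Pros-negative cells. At 4-6h, 54 of the 176 genes (30.7%) were called higher, against a background of 3.6% of the 17109 genes tested, and 0 were called lower, against 2.18%. At 6-8h, 49 (27.8%) were called higher, against 2.27% of all genes, and again 0 lower, against 1.3%. A gene was called at a Benjamini-Hochberg adjusted p below 0.05 by edgeR's quasi-likelihood test with an absolute log2 fold change above 1, and all 176 genes entered the test. For the lower direction, edgeR gave 0 genes at an unadjusted p under 0.05 at either time, and DESeq2 called 0 and gave 1 at 4-6h and 0 at 6-8h. The median log2 fold change of the set was 0.98 at 4-6h and 1.08 at 6-8h, where the median over all genes was -0.20 and -0.07. Of the 343 named genes chosen by the same terms, 122 (35.57%) were called higher at 4-6h and 125 (36.44%) at 6-8h, a difference from the CG genes that was not tested. Of the 20 genes of the neuron list 11 and 15 were called higher. The summed level of that list was 3141 and 3086 TPM in Pros-positive against 765 and 702 TPM in Pros-negative cells at 4-6h, and 2869 and 2348 against 685 and 535 TPM at 6-8h. From that list, elav had 1524 and 1545 TPM in Pros-positive against 118 and 128 TPM in Pros-negative cells at 4-6h. At 6-8h elav had 1274 and 1178 against 121 and 106 TPM, while Elav-positive cells had 1870 and 2169 TPM. The neuroblast list, 10 genes, summed to 4001 and 4134 TPM in Pros-positive against 493 and 535 TPM in Pros-negative cells at 4-6h, and to 4301 and 4214 against 492 and 513 TPM at 6-8h, with 9 of 10 genes higher each time. The glia list, 12 genes, summed to 1376.5 and 1291 TPM in Pros-positive against 581 and 597 TPM in Pros-negative cells at 4-6h, and to 1291 and 1080 against 693 and 601 TPM at 6-8h, with 9 of 12 higher each time. None of the 3 lists had a gene at 0 in Pros-positive cells, and the part of neurons, neuroblasts and glia in the calls of the set was not tested.

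CG12507 (X:16265242-16266537) had the largest difference in both Pros sorts. It reached 140 and 91.7 TPM in Pros-positive cells at 4-6h, against 5.44 and 4.41 TPM in Pros-negative cells, and 171 and 116 TPM at 6-8h, against 5.48 and 3.24 TPM. The pairs did not overlap, and the log2 fold change was 4.87 ± 0.71 (SE) at 4-6h and 5.18 ± 0.72 at 6-8h, with an edgeR adjusted p of 4.69e-05 and 2.63e-05. At 18-22h it had 180 and 91.7 TPM in neurons. It was not called in the Ind or Vnd sorts.

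CG13928 had 256 and 261 TPM in Pros-positive cells at 4-6h, against 30.7 and 23.8 TPM in Pros-negative cells, a log2 fold change of 3.71 ± 0.39 (SE; edgeR adjusted p = 3.81e-07). CG45105 (3R:15910372-15918007) had 49.8 and 41.4 TPM against 4.602 and 3.63 TPM at that time, a log2 fold change of 3.68 ± 0.62 (edgeR adjusted p = 0.000285). In both genes the Pros-positive pair lay far above the other.

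At 6-8h CG18675 (3L:4173884-4192968) had 50.6 and 33.8 TPM in Pros-positive cells, against 1.78 and 1.94 TPM in Pros-negative cells, a log2 fold change of 4.60 ± 0.61 (edgeR adjusted p = 1.41e-05). It shares exon bases on the same strand with tipE, a gene for an auxiliary sodium channel protein, so reads of the pair may be split wrongly between them. CG31036 (3R:29908107-29912892) had 53.9 and 40.5 TPM against 2.77 and 1.603 TPM, a log2 fold change of 4.52 ± 0.72 (edgeR adjusted p = 0.00016). Neither gene had a pair of values that overlapped the other fraction.

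Several genes whose RefSeq synonym names a family, picked for that synonym after their values were seen, were among those called in Pros-positive cells. CG34384, a diacylglycerol kinase of the delta type, was higher at 4-6h (log2 fold change 1.47, adjusted p = 0.0132 by edgeR) and 6-8h (2.06, 0.00087), as was CG14535, a kinesin motor of the KIF26 family (1.47, 0.00362, and 1.501, 0.00325). CG32006, listed as the forkhead transcription factor FoxJ1, was higher by 2.69 (0.0398) and 2.87 (0.0384) on the log2 scale. At 6-8h alone CG43066, listed with the solute carrier name Slc6a20, was called (1.89, 0.039), as was CG32085, listed with the F-box protein name FBXL16 (1.95, 0.0359). At 4-6h alone CG5065 was called (1.80, 0.00652). CG31140, the kinase among the most abundant genes of the set in neurons, was not called at either time (0.34, 0.798, and 0.68, 0.529). CG42260, listed as the cyclic nucleotide-gated channel dmCNG4, had values below 0 that did not pass the test (-0.58, 0.454, and -0.59, 0.628).

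Of the 54 genes called in Pros-positive cells at 4-6h and the 49 at 6-8h, 40 were called at both times, which is 74.1% of the first list and 81.6% of the second. Over all genes, the 315 called at both times were 51.1% and 81.2% of the lists at 4-6h and 6-8h. The enrichment itself did not change detectably between these times. The interaction test of edgeR called 0 genes of the set in either direction, with 0 at an unadjusted p under 0.05, and DESeq2 called 0 with 1 gene each way at an unadjusted p under 0.05; over all genes the edgeR background was 0.00584% with a larger and 0.0% with a smaller enrichment at 6-8h. The counts in the Pros sorts depended on single libraries. They changed least without Pros-positive replicate 1 at 4-6h and Pros-positive replicate 2 at 6-8h. Without each library named next, fewer of all genes were also called higher. Leaving 1 out gave 27 genes without Pros-negative replicate 1, 17 without Pros-negative replicate 2 and 26 without Pros-positive replicate 2 at 4-6h, and 24 without Pros-negative replicate 1, 13 without Pros-negative replicate 2 and 15 without Pros-positive replicate 1 at 6-8h.

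**Figure D3:**
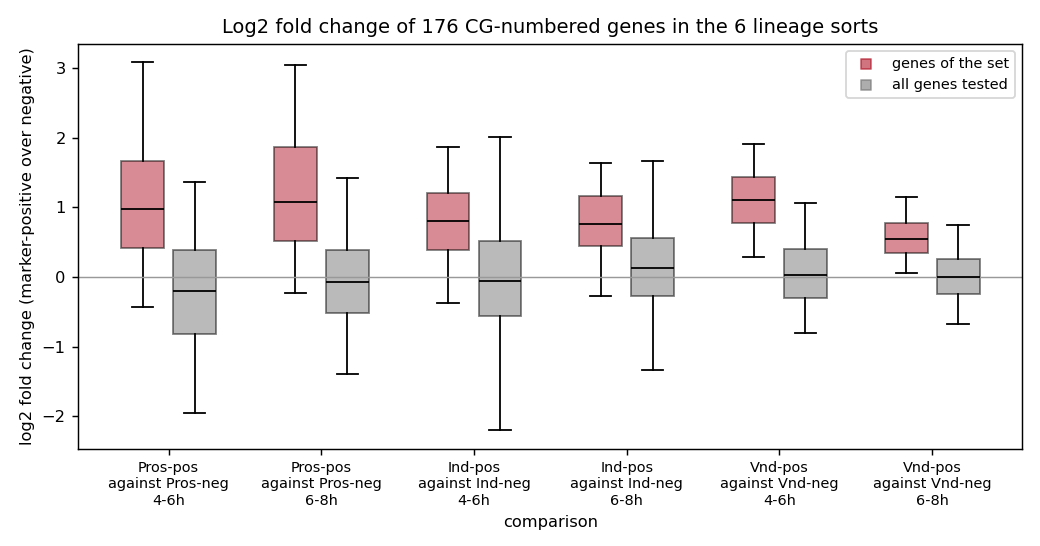
Log2 fold change of marker-positive over marker-negative cells in the 6 Pros, Ind and Vnd sorts, for the 176 genes and for all 17109 genes tested (line, median; box, middle 50%; whiskers, the 5th to 95th percentile). The median of the set lies above that of all genes in each sort, most in Pros at 4-6h (0.98 against -0.20) and in Pros at 6-8h (1.08 against -0.07).

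The column sorts were tested in the same way. In Ind-positive cells 23 genes were called higher and 1 lower at 4-6h, against backgrounds of 1.16% higher and 3.33% lower. At 6-8h 13 were called higher and 0 lower, against 0.684% higher and 1.65% lower. For the lower direction at 6-8h, edgeR and DESeq2 both gave 0 genes at an unadjusted p under 0.05. The set had a median log2 fold change of 0.80 at 4-6h and 0.76 at 6-8h, and all genes had -0.06 and 0.13. Of the neuron list, 2 of 20 genes were called higher at each time, and its sum was 976 and 873 TPM in Ind-positive against 412 and 332 TPM in Ind-negative cells at 4-6h. The neuroblast list summed to 1808 and 2100 TPM in Ind-positive against 702 and 648.5 TPM in Ind-negative cells at 4-6h, with 10 of 10 genes higher. The part of neurons and neuroblasts in these calls was not tested. The counts depended on the tool: DESeq2 called 42 genes higher at 4-6h and 36 at 6-8h, against 3.19% and 3.0% of all genes with a DESeq2 adjusted p. In Pros it called 65 and 72, against 8.79% and 6.92%. With edgeR on only the libraries compared the counts were 26 and 29 in Ind, against 1.93% and 1.56% of all genes, and 72 and 78 in Pros, against 6.17% and 4.14%.

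Among the genes called, CG13928 had the largest difference at 4-6h, with 59.6 and 63.3 TPM in Ind-positive cells, against 11.2 and 8.98 TPM in Ind-negative cells (log2 fold change 2.54 ± 0.37 SE; edgeR adjusted p = 7.22e-05). CG13920, the NACHO gene, had 72.3 and 81.4 TPM against 15.1 and 13.3 TPM (2.30 ± 0.42; edgeR adjusted p = 0.000773). CG5065 had 33.0 and 37.7 TPM against 8.01 and 5.79 TPM (2.21 ± 0.42; edgeR adjusted p = 0.000969). In all 3 genes the Ind-positive libraries lay above both Ind-negative ones. CG3618 (3L:20813353-20816075) was the gene that fell, with 6.17 and 5.98 TPM in Ind-positive against 12.7 and 15.99 TPM in Ind-negative cells, and a log2 fold change of -1.402 ± 0.34 (edgeR adjusted p = 0.0119). Its call was lost without Ind-negative replicate 2 (adjusted p = 0.232), Ind-positive replicate 1 (0.101) or Ind-positive replicate 2 (0.162), that of CG13920 without Ind-negative replicate 2 (0.0641), and that of CG5065 without Ind-negative replicate 2 (0.0846) or Ind-positive replicate 2 (0.0634).

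At 6-8h CG14989 had the largest difference in Ind-positive cells, with 56.4 and 47.1 TPM against 15.8 and 14.4 TPM in Ind-negative cells (log2 fold change 2.12 ± 0.40 SE; edgeR adjusted p = 0.00168). CG13920 had 50.6 and 49.8 TPM against 14.99 and 12.98 TPM (1.98 ± 0.42; edgeR adjusted p = 0.00549), and CG13928 had 74.3 and 59.7 TPM against 20.3 and 16.7 TPM (1.95 ± 0.37; edgeR adjusted p = 0.00161). The pairs did not overlap in any of the 3 genes. Each of the 3 calls was lost without Ind-negative replicate 1 (adjusted p = 0.05 to 0.161), Ind-negative replicate 2 (0.121 to 0.221) or Ind-positive replicate 1 (0.0668 to 0.0868). The count of the set was 2 without Ind-negative replicate 1, 0 without Ind-negative replicate 2, 1 without Ind-positive replicate 1 and 8 without Ind-positive replicate 2. At 4-6h it was 13, 2, 12 and 7 in the same order, and the count called lower was 0 without Ind-negative replicate 2 or Ind-positive replicate 2 and 2 without Ind-positive replicate 1.

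In Vnd-positive cells 22 genes were called higher at 4-6h, against a background of 0.555%, and 0 lower, against 0.129%. At 6-8h 1 gene was called higher, against 0.0877%, and 0 lower, against 0.0526%. For the lower direction edgeR and DESeq2 gave 0 genes at an unadjusted p under 0.05 at both times. The median log2 fold change of the set was 1.10 at 4-6h and 0.54 at 6-8h, and that of all genes was 0.03 and 0.00. The set had a value above 0 in 175 and 169 of its genes. The neuron list moved in the same direction, with 9 of 20 genes called higher at 4-6h and 0 at 6-8h. Its sum was 2341 and 2649 TPM in Vnd-positive against 763 and 782 TPM in Vnd-negative cells at 4-6h, while the neuroblast list summed to 1356 and 1503 against 699 and 720 TPM, with 9 of 10 genes higher. The part of either list in the values of the set was not tested. DESeq2 called 68 genes of the set higher at 4-6h and 21 at 6-8h, against 4.59% and 1.92% of all genes with a DESeq2 adjusted p. With edgeR on only the libraries compared the counts were 101 and 29, against 3.37% and 1.8% of all genes.

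CG14989 had the largest difference in the ventral column. At 4-6h it had 287 and 300 TPM in Vnd-positive cells, against 35.8 and 36.4 TPM in Vnd-negative cells (log2 fold change 2.99 ± 0.41 SE; edgeR adjusted p = 0.000502), and at 6-8h 124 and 141 TPM against 28.7 and 28.9 TPM (2.25 ± 0.40; edgeR adjusted p = 0.00902). It was the gene called at 6-8h. In the Pros sorts the same gene had 55.2 and 74.3 TPM in Pros-positive against 53.3 and 53.3 TPM in Pros-negative cells at 4-6h (0.60 ± 0.39; edgeR adjusted p = 0.475) and 38.3 and 29.8 against 28.3 and 21.2 TPM at 6-8h (0.51 ± 0.39; 0.796). The difference between the sorts was not tested.

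CG7781 (2L:8321280-8325409) had 83.3 and 92.0 TPM in Vnd-positive cells at 4-6h, against 16.5 and 15.9 TPM in Vnd-negative cells (log2 fold change 2.18 ± 0.47 SE; edgeR adjusted p = 0.0221). CG13928 had 166 and 171 TPM against 33.7 and 35.7 TPM (2.14 ± 0.37; edgeR adjusted p = 0.00492). The pairs lay well apart in both. The Vnd calls rested on few libraries: at 4-6h 0 genes were called without Vnd-negative replicate 1 or 2 and 1 without Vnd-positive replicate 2, and at 6-8h 0 without Vnd-negative replicate 1, Vnd-negative replicate 2 or Vnd-positive replicate 2. Without these libraries the adjusted p was 0.113 and 0.117 (Vnd-negative replicates 1 and 2) for CG14989 at 4-6h, 0.501, 0.69 and 0.575 for CG14989 at 6-8h, 0.558, 0.373 and 0.404 for CG7781, and 0.545, 0.222 and 0.139 for CG13928. Scaling by median-of-ratios factors gave 52 genes of the set at 4-6h and 11 at 6-8h, against 1.55% and 0.456% of all genes.

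Over the 6 sorts together, 74 of the 176 genes were called higher at least once, against 4.89% of all genes, and 102 never. Of the 74, 26 were called in 1 sort and 20 in 3 or more, against 0.701% of all genes. The Pros sorts called 63 genes, of which 40 were called in neither column, 21 also in Ind and 13 also in Vnd. The Ind sorts called 25 genes and the Vnd sorts 22, of which 4 and 9 were not called in Pros. Over all genes too, the column sorts called fewer than the Pros sorts. The shares called higher at 4-6h and 6-8h were 3.6% and 2.27% in Pros, 1.16% and 0.684% in Ind, and 0.555% and 0.0877% in Vnd. The overlaps of Pros with Ind and Vnd were not counted over all genes, so nothing is read from them about the set. CG13920, CG6329, CG13928, CG12605, CG13287, CG13293, CG3408 and CG14042 were called in 5 of the 6 sorts, all but Vnd at 6-8h. CG14535, CG34353 and CG43347 completed the 11 genes called at least once in all of Pros, Ind and Vnd. CG43347 and CG14042 share exon bases on the same strand with other genes, CG43347 with CG1628 and CG14042 with SP555. These lists were read off the calls and carry no test of their own.

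**Figure D4:**
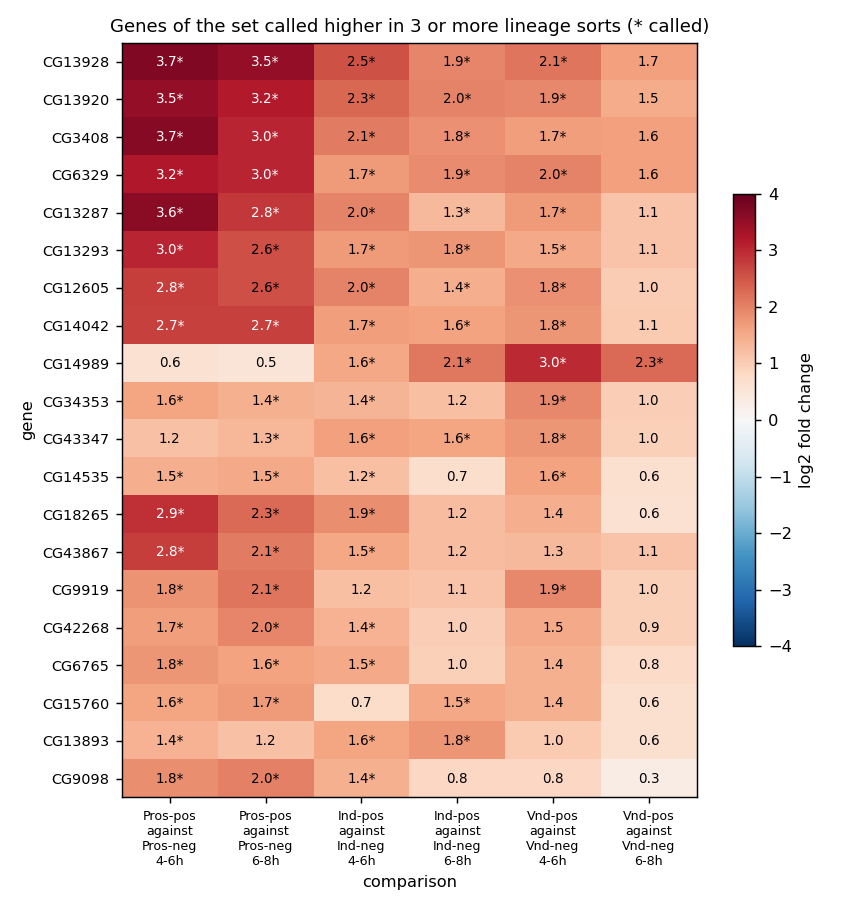
Log2 fold change (colour and number) of the 20 genes of the set called higher in 3 or more of the 6 Pros, Ind and Vnd sorts, with an asterisk on each call. CG14989 has the largest Vnd value of these genes (2.99 at 4-6h) and no call in Pros.

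With the receptor median of each library added to the edgeR fit as a covariate, 67 and 70 genes of the set were called higher in Pros at 4-6h and 6-8h, against 4.97% and 3.52% of all genes. The counts were 33 and 23 in Ind, against 3.27% and 1.41%, and 40 and 8 in Vnd, against 1.27% and 0.386%. All but 1 of the calls made without it were among them.

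Within neurons, the median of the group means was 43.3 TPM at 6-8h, 37.5 TPM at 8-10h and 107.2 TPM at 18-22h. The libraries compared here also chose the set, so the values between times are given by their size alone, with no test, and nothing is read from the counts against all genes. The log2 values come from counts scaled between libraries by trimmed-mean factors, which TPM does not use, so a gene's log2 value and the ratio of its TPM can differ.

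At 8-10h against 6-8h, 171 of 176 genes had a log2 value below 0, with a median of -0.75 where all genes had 0.01. With median-of-ratios factors the median of all genes moved to 0.22 and that of the set to -0.57. A log2 value below -1 was found for 33 genes of the set (3.15% of all genes) and one above 1 for 0 (23.1% of all genes). The TPM of the libraries overlapped for most genes: both 8-10h libraries lay below both 6-8h libraries for 23 genes and above them for 7. Of all 17109 genes tested, 706 lay below in this way and 2977 above. CG30172 had the lowest value, with 95.3 and 136 TPM at 8-10h against 214 and 286 TPM at 6-8h (log2 -1.46 ± 0.49 SE), and is named here after its value was seen.

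At 18-22h against 8-10h, 156 of the 176 values were above 0, and the median log2 fold change was 1.53 for the set and 0.03 for all genes. A log2 value above 1 was found for 122 genes (16.1% of all genes) and one below -1 for 4 (11.6% of all genes). Both late libraries lay above both earlier ones in TPM for 141 genes and below them for 14. Of all 17109 genes tested, 2777 lay above in this way and 4090 below. The set could not hold any gene that neurons lost by either time. Of the 343 named genes chosen by the same terms, 234 had a log2 value above 1 and 11 one below -1. The receptor median in these libraries was 10.4 and 3.31 TPM at 18-22h and 0.603 and 15.4 TPM at 8-10h, and its part in these values was not tested.

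Marker lists also differed between these times in Elav-positive cells. The neuron list summed to 12863 and 12104 TPM at 18-22h against 5342.5 and 6306.5 TPM at 8-10h, with 19 of 20 genes higher, while elav itself had 709 and 862 TPM against 2064 and 2114 TPM. The neuroblast list was at 502 and 573 TPM against 2437 and 1722 TPM, with 0 of 10 genes higher. The muscle list was at 938 and 1442 TPM against 352 and 263 TPM (8 of 9 genes higher), and the epidermis list at 261.5 and 523 TPM against 140 and 168 TPM (5 of 8). The haemocyte list was at 279 and 312 TPM against 172 and 169.5 TPM (4 of 7), the glia list at 1402 and 1347 TPM against 1208 and 1016 TPM (6 of 12), and the sense organ list at 636 and 545 TPM against 265.5 and 279 TPM (3 of 6). Their part in the late values of the set was not tested.

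CG10384 (2R:22454741-22472995) had 116 and 117 TPM in neurons at 18-22h, against 10.1 and 27.7 TPM at 8-10h, a log2 fold change of 3.05 ± 0.75 (SE). CG13116 (2L:9729940-9730945) had 160 and 145 TPM against 15.3 and 23.5 TPM (3.04 ± 0.88). CG34370 (2R:21987068-22039559), which carries the synonym tld-like after the tolloid family of secreted proteases, had 167 and 145 TPM against 15.49 and 30.2 TPM (3.04 ± 0.78). In these 3 genes both late libraries lay above both earlier ones.

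CG7781 had 792 and 696 TPM at 18-22h, against 84.4 and 116 TPM at 8-10h, a log2 fold change of 3.02 ± 0.48 (SE). Among genes with a listed family, the log2 value was 2.45 for CG31140 and 1.78 for CG34384, the diacylglycerol kinases, 2.33 for the channel gene CG42260, 1.78 for the Slc6 transporter gene CG43066, 2.32 for the dLev-10 gene CG42613 and 1.18 for the kinesin gene CG14535. In each of these both late libraries lay above both earlier ones. The guanylyl cyclase gene CG34357 had 128 and 84.3 TPM at 18-22h against 10.2 and 32.6 TPM at 8-10h, with a log2 value of 2.61 ± 0.95. CG32085 had a log2 value of 1.402 and CG32006 one of 1.52.

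CG13287 (3L:5882304-5884090) and CG3408 had the lowest late values, and CG2111 (-1.30 ± 0.60) and CG12637 (-1.002 ± 1.27) were the other genes below -1 on the log2 scale. CG13287 had 67.9 and 73.9 TPM at 18-22h, against 237 and 266 TPM at 8-10h (log2 fold change -1.71 ± 0.33 SE). CG3408 had 146 and 214 TPM against 591 and 565 TPM (-1.58 ± 0.37). Both were among the genes higher in Pros-positive cells at both times, with log2 fold changes of 3.62 and 2.83 for CG13287 and 3.66 and 3.04 for CG3408.

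**Figure D5:**
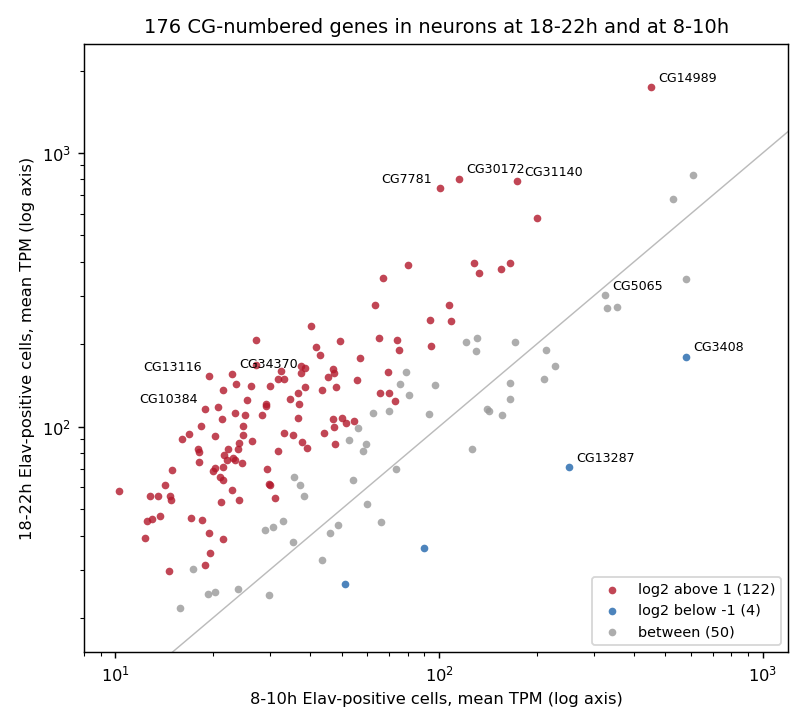
Mean TPM of the 176 genes in Elav-positive cells at 18-22h (vertical, log axis) and 8-10h (horizontal, log axis), with the 122 genes whose log2 value is above 1 and the 4 below -1 in colour and a line of equal level. Most genes lie above the line, CG14989 is highest at 18-22h, and CG3408 and CG13287 lie below the line.

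The genes of the set were larger than CG genes in general. The longest coding sequence of a gene had a median of 1729.5 bases, against 927 bases over all 5976 CG genes, and the median gene spanned 5790.5 bases with 6 exons, against 1621 bases with 3 exons. Of the 176 genes 41 (23.3%) spanned 20 kb or more, against 3.25% of CG genes, and 14 (7.95%) had a single exon, against 20.25%. The named genes chosen by the same terms were larger still, with a median span of 18198 bases and 46.9% at 20 kb or more. CG34353, with a span of 137878 bases on 3R, was the longest of the set. These features were not part of the choice and were not tested. The set was spread over the genome with 35 genes on X, 31 on 2L, 34 on 2R, 32 on 3L, 41 on 3R and 3 on 4, close to the shares of all CG genes (19.9% and 16.7% on X, 23.3% and 23.8% on 3R) except on chromosome 4, which held 1.7% of the set and 0.22% of CG genes.

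Exons of 23 genes (13.1%, against 8.03% of CG genes) overlapped an exon of another gene on the same strand, so their reads may be split wrongly. There were 8 pairs of neighbours in the set. CG13337 and CG18368 on 2R, CG42613 and CG43732 on 3R, and CG6726 and CG17110 on 3R shared exon bases. The values within each of these pairs are not independent. CG6726 and CG17110 start at the same base (3R:23091724) and stand in a row of 5 genes, CG6726, CG17110, CG17109, CG6733 and CG6738, of which CG6738 was also in the set. At 18-22h CG6726 had 87.5 and 59.4 TPM in Elav-positive cells, against 5.76 and 19.03 TPM in Elav-negative cells, and CG6738 had 86.8 and 66.3 TPM against 1.82 and 16.6 TPM. CG17109, between them, had 73.6 and 66.9 TPM in Elav-positive cells and 225 and 217 TPM in Elav-negative cells, the opposite order. The diacylglycerol kinase gene CG34384 ends 190 bases before CG17816 on the other strand, with 164 and 139 TPM against 2.46 and 14.2 TPM for CG34384 and 423 and 370 against 10.6 and 31.3 TPM for CG17816 in Elav-positive and Elav-negative cells at 18-22h. The remaining pairs were CG34189 and CG42392 on 2R, CG42322 and CG31199 on 3R, CG11155 and CG32017 on chromosome 4, and CG7058 and CG42450 on X. CG42392 also shares exon bases with unc-104, a kinesin gene of the neuron list.

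Among 117 genes with at least 2 listed transcripts, the leading transcript of 6 differed between 6-8h and 18-22h in both replicates. In CG3408 transcript FBtr0076426 held 38.15% and 42.87% of the gene's TPM in neurons at 6-8h, 27.97% and 20.64% at 8-10h and 56.75% and 50.43% at 18-22h, so that its share was lowest at 8-10h, and FBtr0333863 held the rest. In CG6329 FBtr0339950 held 31.57% and 21.41% at 6-8h, 20.19% and 27.3% at 8-10h and 43.35% and 43.6% at 18-22h. The change was small in CG9646, where FBtr0340125 held 42.53% and 45.25% at 6-8h, 42.12% and 46.27% at 8-10h and 50.84% and 52.97% at 18-22h. CG42268, CG9164 and CG42541 also switched, but a leading transcript of theirs varied widely between the 8-10h replicates, with 43.3% and 89.1% in CG42541 and 33.0% and 0.01% in CG9164. Transcript shares from Salmon are estimates, and with 2 libraries per time no test was made.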

How the data were processed

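Cells were fixed, sorted by fluorescence and used for ribodepleted RNA-seq. The authors quantified transcripts with Salmon 0.8.1 on a transcript index made with RSEM 1.3.0 from the fly genome (BDGP release 6), with FlyBase annotation, and deposited per library an estimated count and a TPM value for each of 34428 transcripts. The authors also deposited DESeq2 tables of baseMean, fold change and p-values for their own comparisons, which were not used. Here TPM and estimated counts, rounded for the count tests, were summed to 17257 genes with the Ensembl annotation of BDGP6.54, whose coordinates are printed 1-based. Of the transcripts, 305 were unmatched (0.241% to 0.502% of reads) and left out.

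Counts were scaled by trimmed-mean factors and filtered on low counts, and edgeR 4.0.16 (limma 3.58.1, R 4.3.3) fitted the 24 group means over 48 libraries with the quasi-likelihood test, leaving 24 residual degrees of freedom. P-values were adjusted by the Benjamini-Hochberg method over 17109 genes, and genes were called at an adjusted p under 0.05 if their log2 fold change also exceeded 1 in size. The fit was tested on simulated data. Between times in Elav-positive cells values are given by size, since those libraries chose the set. The planned edgeR test picked up to 4 called genes each way to name there, and nothing else is read from it. Python 3.11.15, pandas 2.3.3 and matplotlib 3.10.9 were used for summaries and plots. The alternatives were DESeq2 1.42.0, median-of-ratios factors, no filter, length-scaled TPM counts, a replicate block, only the libraries compared, each library left out and, added after seeing the data, the receptor level as a covariate.

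The members and lists were chosen with earlier results of these data known. Genes were named by rule: the 8 with the highest neuronal level, up to 3 calls each way with the largest change in each sort and up to 4 in each time comparison, the 3 nearest the fold limit on each side, transcript switches and neighbours. Genes outside it were named after their values were seen, including those called in 3 or more sorts. Protein and promoter features were not analysed here. RefSeq synonyms came from the RefSeq gene table.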

Additional observations from a re-analysis of the deposited data

How the results depend on the processing

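No alternative reversed the direction of the 23 gene results run under it, the genes named for the largest changes; the genes named for a family were not run. Scaling by median-of-ratios factors called 36 and 23 genes in Ind at 4-6h and 6-8h, against 2.19% and 1.21% of all genes. In Vnd it called 52 and 11, against 1.55% and 0.456%. The main fit called 23, 13, 22 and 1 in these sorts. The scaling moved the median log2 value of all genes by 0.18 in Ind at 4-6h, 0.18 and 0.14 in Vnd and 0.21 in neurons at 8-10h. The median of the set less that of all genes was 0.87, against 0.86 in the main fit, in Ind at 4-6h. In Vnd at 4-6h it was 1.07 against 1.08. DESeq2 called 42, 36, 68 and 21 genes in the same 4 sorts. A fit of only the libraries compared called 78 in Pros at 6-8h, 29 in Ind at 6-8h, 101 and 29 in Vnd, and 0 higher and 0 lower in neurons at 18-22h against 8-10h, where the fit of all libraries called 76 and 2, counts from libraries that also chose the set and that support nothing. The receptor covariate called 23 in Ind at 6-8h and 40 and 8 in Vnd, and length-scaled counts 2 in Vnd at 6-8h (0.0993% of all genes). The cause of these differences was not tested.

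Leaving out 1 library gave 17 to 46 genes in Pros at 4-6h, 13 to 50 at 6-8h, 2 to 13 in Ind at 4-6h (0 to 2 lower), 0 to 8 at 6-8h, 0 to 17 in Vnd at 4-6h, 0 to 1 at 6-8h, and 34 to 60 higher and 0 to 3 lower late; of all genes it called 0.817% to 2.83% and 0.636% to 2.25% higher in Pros, 0.251% to 0.788% and 0.152% to 0.379% in Ind and up to 0.356% and 0.035% in Vnd. A group left with 1 library was assumed to vary like the others. The late counts come from libraries that also chose the set and support nothing. The set itself held 107 to 219 genes, and 75 when each library had to pass against each.

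The labels do not say that a replicate number marks a shared collection, and 2 pairs per comparison cannot show pairing. Deviations of the same-numbered libraries correlated at 0.415 and -0.23 in Pros, 0.466 and 0.511 in Ind and -0.367 and -0.016 in Vnd (4-6h and 6-8h, over 17109 genes), and at 0.473, 0.764 and -0.618 in Elav and 0.267, 0.694 and 0.124 in Repo (6-8h, 8-10h and 18-22h). With a replicate block 45 and 41 genes were called higher in Pros, against 3.79% and 2.18% of all genes. In Ind the block gave 23 and 10, against 1.39% and 0.731%, and in Vnd 15 and 0, against 0.392% and 0.0526%. It called 70 higher late, a count from libraries that also chose the set and that supports nothing. With the block CG14989 in Vnd at 6-8h had a log2 value of 2.24 and an edgeR adjusted p of 0.0507. With 2 libraries per group, p-values rest on a spread shared over all groups. A difference that missed the threshold is not shown to be absent.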
